A study of Mus musculus with 6 samples.

Results

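Acyl-CoA thioesterases are the enzymes that split an acyl-CoA into a free acid and coenzyme A. The genes described are the 10 members Acot1, Acot2, Acot3, Acot4, Acot5, Acot6, Acot7, Acot9, Acot12 and Acot13, taken as every probe that carries 1 of these gene names and is not a control probe. They are 10 of the 19616 features tested on the array (a feature is the brightest usable probe of a gene name) and hold 13 of its 39429 probes. All 13 probes were usable, which means well above background on each array that measured them in 1 diet or both, 3 of them were dim on 1 array, and none was saturated on any array. The members were chosen by their measured differences between the diets, so those differences are given as a description, without p-values, and nothing is read from the number of members that passed the test.

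RNA came from liver outside the tumours of 6 male C57BL/6 mice, 5 weeks old at the start, 3 on a control diet (LabDiet) and 3 on a moderately carbohydrate-restricted diet; the sample titles call both diets supplemented and name no supplement. Both diet groups carried the same liver cancer model, a transposon vector with HrasG12V, a short hairpin against p53 (shp53) and GFP4, delivered to the liver by hydrodynamic tail vein injection, so no group without the vector enters any comparison. The labels conflict on the feeding times (1 week before injection and 5 weeks of diet in the sample labels, 2 and 4 weeks in the series text), and the series text adds calorie restriction mimetic phytochemicals to the restricted diet, which the sample labels do not name. Each mouse gave 1 single-colour array. Correlations across features were 0.976 to 0.988 between arrays of the same diet and 0.925 to 0.947 between diets, and the label of liver fitted its markers, with 7 of 12 hepatocyte genes saturated on all 6 arrays. The 3 control mice and restricted mouse 1 were hybridised on 1 slide, and restricted mice 2 and 3 on another, scanned separately. Among the restricted mice, slide and mouse cannot be told apart.

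Acyl-CoA is the activated form in which fatty acids are oxidised, elongated or built into lipids, and thioesterases reverse that activation. The type I enzymes, Acot1 to Acot6, are products of a tandem gene cluster and share a fold of the alpha/beta hydrolase kind. In the mouse Acot1 is cytosolic, Acot2 is mitochondrial, and Acot3, Acot4, Acot5 and Acot6 are peroxisomal. The type II enzymes, here Acot7, Acot9, Acot12 and Acot13, are unrelated in sequence to type I and are built from hotdog domains. In mouse liver the type I genes are textbook targets of PPARα, the nuclear receptor that responds to fatty acids and to fasting.

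Because type I genes resemble each other, the probes matter for what follows. The last 30 bases of each type I probe, at its 3′ end, follow, with the hexamer AATAAA in capitals, the usual signal for cleavage and polyadenylation.
Acot2 (chr12:85334071-85334130): cagttcaggttagttcatttgaacatattc
Acot1 (chr12:85358561-85358620): tgccaggAATAAAaaggaaccatgattaaa
Acot4 (chr12:85384821-85384880): cattaatggcttataagtcactgtactgaa
Acot3, dimmer probe (chr12:85399468-85399527): gaaacttacagtacaaggatgagactgtgc
Acot3, brighter probe (chr12:85400452-85400511): acatgAATAAAaatacatggtttgaaagag
Acot5, first probe (chr12:85416634-85416693): aacaggacaccacattgaacccccttacat
Acot5, second probe (chr12:85416893-85416951): atatatgcattgttttcttcttttAATAAA
Acot6, dimmer probe (chr12:85450667-85450726): gcctagtgctatgccttgccaaggacaaaa
Acot6, brighter probe (chr12:85451951-85452010): tgagcggtaggctaagaactcttgcatctt
Positions are the array design's, on mm9, and all 9 lie on the plus strand. The hexamer occurs in 3 of the 13 member probes, all of type I, against 12.6% of all probes on the array. No stretch longer than 9 bases is common to any pair of the 13 probes on either strand, so none of them is a copy of another. Against the rest of the array only runs of 20 bases or more were searched, and among the 13 probes the brighter Acot3 probe alone had one, a 21-base run of mostly alternating A and C that also occurs in the probes named Itgam and Slc35e2.
Shared run: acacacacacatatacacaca
How far a type I probe also reads the transcript of another type I gene was not tested, since family transcripts were not used here.

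Values are log2 signals relative to the 75th percentile of the same array, and differences are restricted minus control. They compare a probe with itself across mice, not one gene's level with another's. A feature is called when limma's Benjamini-Hochberg adjusted p over all 19616 features is under 0.05. Of all features, 27.5% were called, 14.6% higher and 12.8% lower on the restricted diet, and the median feature differed by 0.12.

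Signal of the type I genes was higher on the restricted diet in every gene of the cluster, and 5 of the 6 were called. Acot1, the cytosolic enzyme for long-chain acyl-CoA (NM_012006), read -0.71, 1.23 and -0.59 in control mice 1 to 3 and 4.12, 5.5 and 4.49 in restricted mice 1 to 3. The lowest restricted mouse stood well clear of the highest control mouse, and control mouse 2 stood apart from the other control mice. The group means were -0.02 ± 1.09 and 4.70 ± 0.71 (SD, n = 3 each), a difference of 4.73 ± 0.58 (SE), or 26.5-fold.

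Acot2, the mitochondrial counterpart of Acot1 (NM_134188), had values of -4.12, -3.29 and -5.28 in the control mice and -2.17, -1.12 and -2.26 in the restricted mice. The diets did not overlap, and control mouse 3, the lowest, was not well above background. The difference was 2.38 ± 0.54 (SE, n = 3 each), or 5.22-fold, and it was called. With normexp background correction, whose offset shrinks differences of dim probes, it was 1.13 and also called.

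The peroxisomal genes Acot3, Acot4, Acot5 and Acot6 varied more between the restricted mice than Acot1 and Acot2 did. The gap was smallest for Acot6, with an SD of 0.82 against 0.71 for Acot1 and 0.63 for Acot2. Acot4, which in the mouse hydrolyses succinyl-CoA (NM_134247), read -0.68, 0.12 and -0.22 in the control mice and 0.48, 2.84 and 1.52 in the restricted mice. Restricted mouse 1 lay just above the control range and restricted mouse 2 far above it. The difference of 1.88 ± 0.56 (SE, n = 3 each), or 3.67-fold, was called.

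Acot3, a peroxisomal enzyme for medium- to long-chain acyl-CoA (NM_134246), showed this most. Its brighter probe read -1.56, 0.20 and 0.22 in control mice and 0.63, 4.97 and 3.6 in restricted mice. Again restricted mouse 1 sat next to the controls, here with the other restricted mice at least 2.97 above it. The difference was 3.45 ± 1.07 (SE, n = 3 each), or 10.9-fold, and Acot3 was the 1 member that was not called.

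Acot5, a peroxisomal enzyme for medium-chain acyl-CoA (NM_145444), read -3.68, -2.21 and -2.83 in the control mice and -0.22, 2.33 and 0.94 in the restricted mice on its first probe. All restricted mice were clear of the controls, in the same order as for Acot3 and Acot4. The difference of 3.92 ± 0.66 (SE, n = 3 each), or 15.2-fold, was called, as was the 2.87 found with normexp.

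Acot6, which in the mouse acts on branched acyl-CoAs such as phytanoyl-CoA (brighter probe designed to ENSMUST00000056822), read -3.20, -3.28 and -4 in control mice and -1.93, -1.33 and -2.96 in restricted mice. Here restricted mouse 3 came closest to the controls. The difference of 1.42 ± 0.43 (SE, n = 3 each), or 2.68-fold, was called, as was the 0.94 found with normexp.

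**Figure D1:**
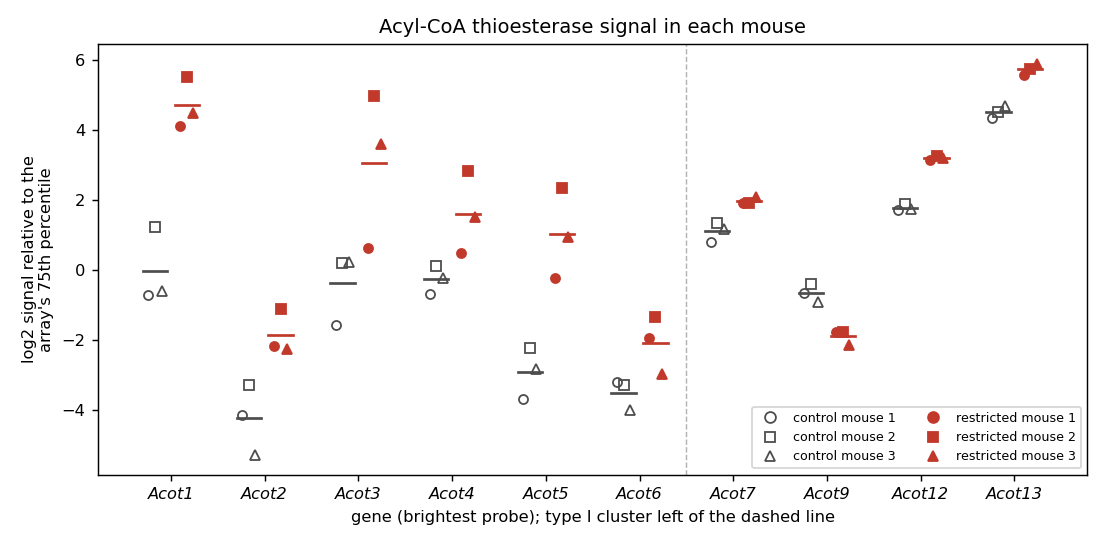
Log2 signal, scaled to the 75th percentile of each array, of the brightest probe of each of the 10 Acot genes (vertical axis), 1 point per mouse, open for the control diet and filled for the restricted diet, with a bar at each diet's mean. The diets do not overlap for any of the genes, restricted mouse 2 is the highest of its diet for Acot1 to Acot6, and the restricted points of Acot7, Acot9, Acot12 and Acot13 lie close together.

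The type I genes spread more among the restricted mice than the other members did. The SD was 0.71 for Acot1, 0.63 for Acot2, 2.22 for Acot3, 1.18 for Acot4, 1.28 for Acot5 and 0.82 for Acot6, against a median of 0.25 over all features. The Acot3 SD was larger than that of 99.9% of features, and the smallest of the 6, that of Acot2, larger than that of 90.5%. The type II genes were tighter, with SDs of 0.10 for Acot7, 0.21 for Acot9, 0.06 for Acot12 and 0.17 for Acot13. Among control mice the type I genes were also the more variable, with SDs of 1.09 for Acot1, 1.00 for Acot2, 1.02 for Acot3, 0.40 for Acot4, 0.74 for Acot5 and 0.44 for Acot6, against 0.09 to 0.27 for type II and a median of 0.28 over all features. For Acot1 and Acot2 the control SD was the larger of the diets.

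Restricted mouse 2 was the highest of its diet for all 6 type I genes, a rank it held for 25.9% of all features. It exceeded restricted mouse 1 by 4.34 for Acot3, 2.55 for Acot5, 2.36 for Acot4, 1.37 for Acot1, 1.05 for Acot2 and 0.60 for Acot6. The rank was the same with normexp, quantile and median scaling, and the Acot3 gap lay between 4.21 and 4.34 with the main scaling included. The deposited value table gave the same values as the main scaling. Control mouse 2 was likewise the highest control for Acot1, Acot2, Acot4 and Acot5. The labels do not say whether mice of the same number in both diets are paired, and the main fit assumed no pairing.

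Set against the control mean, restricted mouse 1, the 1 restricted mouse on the slide of the controls, was 4.15 higher for Acot1, 2.69 for Acot5, 2.06 for Acot2, 1.57 for Acot6, 1.01 for Acot3 and 0.74 for Acot4. With slide as a block, which gives these same values, Acot1 alone of the type I genes was still called, and the type I median went from 2.92 to 1.81. Without restricted mouse 2, Acot1 and Acot5 were called and Acot2, Acot4 and Acot6 were not, at differences of 2.02, 1.26 and 1.05.

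**Figure D2:**
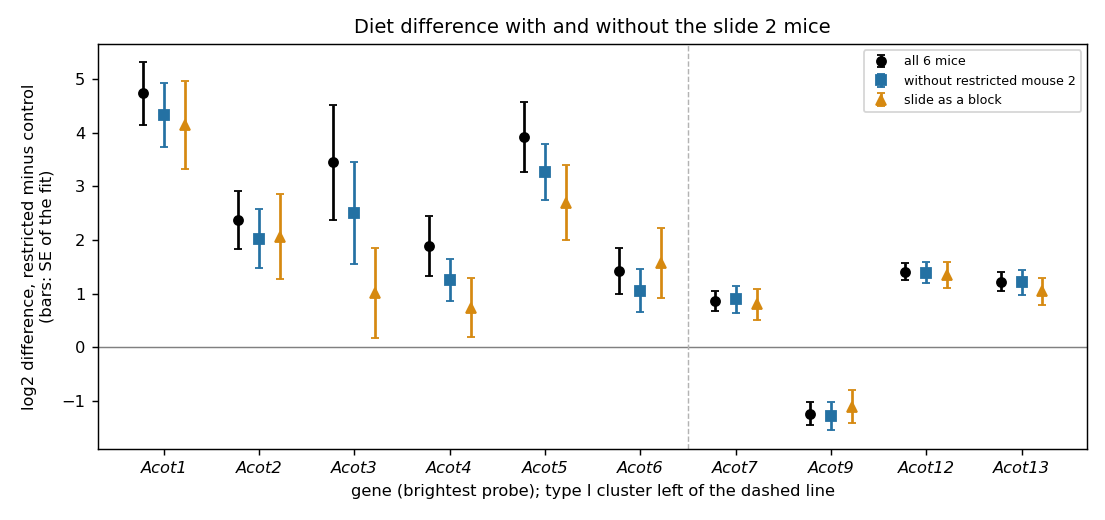
Log2 difference between the diets (restricted minus control) for the 10 Acot genes with all 6 mice, without restricted mouse 2, and with slide as a block; bars are the SE of the fit. Every difference keeps its sign; those of Acot3, Acot4 and Acot5 shrink most with slide as a block, while Acot7, Acot9, Acot12 and Acot13 move less.

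The type I probes span 118 kb of chromosome 12. Between them lay no other tested feature with an ordinary gene symbol, that is, one that is not a clone or transcript name. Neighbours were taken from such features only. The order of the cluster is Acot2, Acot1, Acot4, Acot3, Acot5 and Acot6. The size of the difference did not follow this order, being 2.38, 4.73, 1.88, 3.45, 3.92 and 1.42. The nearest features on either side, Riox1 at 40.5 kb and Mideas at 38.3 kb, differed by 0.01 ± 0.37 (adjusted p = 0.984) and -0.97 ± 0.30 (adjusted p = 0.0514; SE, limma, n = 3 per diet). Of the 4 nearest tested features on each side, 3 of 8 were called, all higher. They were Numb, a Notch inhibitor, at 0.94 ± 0.26 (limma adjusted p = 0.0341), Ptgr2, a prostaglandin reductase, at 1.54 ± 0.19 (adjusted p = 0.00186), and Coq6, of ubiquinone synthesis, at 0.69 ± 0.17 (adjusted p = 0.0221). None of the 8 differed by as much as Acot2, although Ptgr2, 203 kb from the cluster, differed by more than Acot6. In restricted mice 1 to 3 Ptgr2 stood 1.28, 1.82 and 1.53 above the control mean, so it too was highest in mouse 2, by a smaller margin than Acot1.

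**Figure D3:**
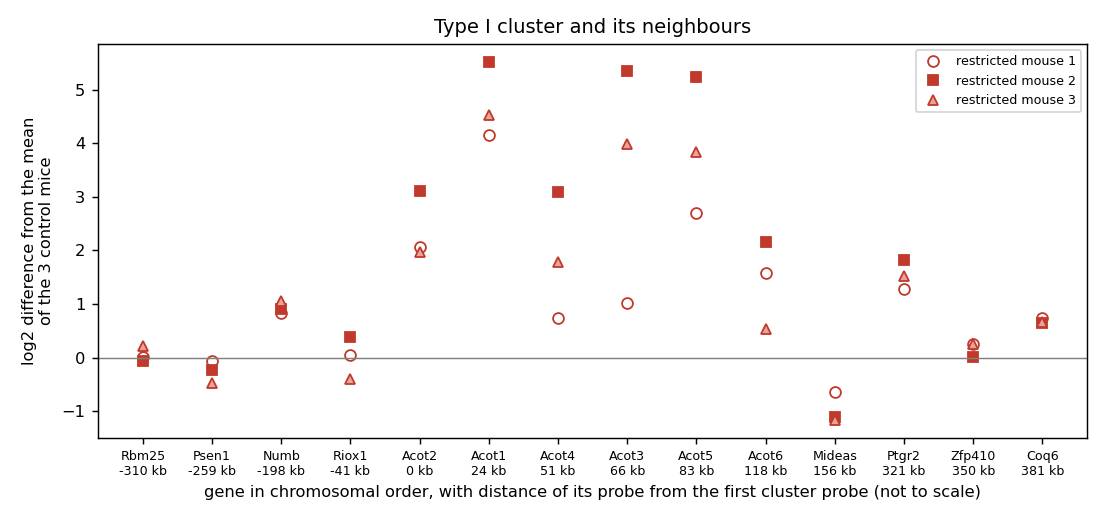
Log2 difference of each restricted mouse from the mean of the 3 control mice (vertical axis) for the type I genes and their neighbours, in chromosomal order. The neighbours are the 4 nearest tested features with an ordinary gene symbol on each side. Labels give the distance from the first cluster probe (spacing not to scale). The differences of Acot1, Acot2 and Acot5 exceed those of all 8 neighbours in every restricted mouse, those of Acot3, Acot4 and Acot6 do not, and the 3 mice lie farther apart within the cluster than in most neighbours.

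Acot3, Acot5 and Acot6 have 2 probes each, and the probes of a gene did not always tell the same story. The dimmer Acot3 probe, 984 bases from the brighter one, read -5.55, -3.70 and -3.99 in control mice and -2.93, 1.58 and -0.11 in restricted mice. It placed the restricted mice in the same order and differed by 3.93 ± 1.09 (SE), which was called when every probe was tested, although control mouse 1 was not well above background. The brighter probe carries the AC-rich run shown above. The probes that share this run did not follow its pattern: the Itgam probe read 3.69, 3.90 and 5.08 in control mice and 4.42, 4.28 and 5.42 in restricted mice, and the Slc35e2 probe -1.41, -1.01 and 0.20, then -0.48, -0.42 and 0.49.

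The second Acot5 probe, 259 bases from the first and ending in AATAAA, read -3.26, -2.26 and -3.29 in control mice and -2.43, -2.22 and -2.92 in restricted mice. The diets overlapped, and the difference was 0.41 ± 0.33 (SE), not called, against 3.92 on the first probe. For Acot6 the dimmer probe (NM_172580), 1284 bases from the brighter one, read -4.88, -5.26 and -5.00, then -4.11, -4.52 and -5.55, a difference of 0.32 ± 0.36 (SE) that was not called. These values overlapped as well, and restricted mouse 3 was not well above background. The differences of Acot5 and Acot6 therefore each rest on 1 of their 2 probes.

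**Figure D4:**
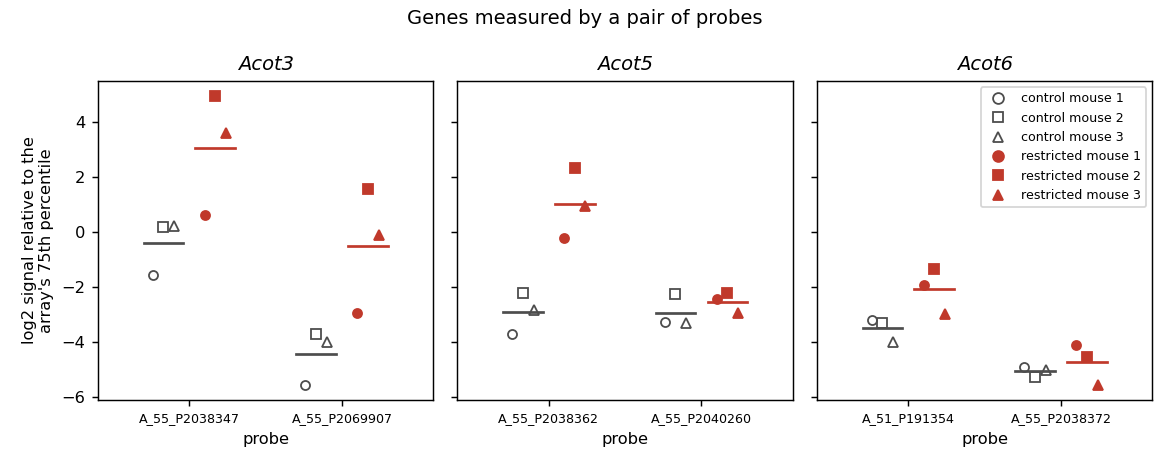
Log2 signal, scaled to the 75th percentile of each array, for both probes of Acot3, Acot5 and Acot6, 1 point per mouse, with a bar at each diet's mean. Both Acot3 probes separate the diets with restricted mouse 2 highest, whereas for Acot5 and Acot6 the diets separate on 1 probe and overlap on the other.

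At the median the type II members moved less, and their mice lay closer together. Gene by gene the groups met, with differences of 1.41 for Acot12 and 1.42 for Acot6. In restricted mouse 1, Acot12 (1.35) and Acot13 (1.04) stood farther above the control mean than Acot3 (1.01) and Acot4 (0.74). Acot12, a cytosolic acetyl-CoA hydrolase of liver (NM_028790, mm9 chr13:91925586-91925645), read 1.72, 1.88 and 1.74 in control mice and 3.13, 3.24 and 3.20 in restricted mice. Within a diet the mice lay within 0.16 (control) and 0.11 (restricted) of each other. The difference was 1.41 ± 0.16 (SE, n = 3 each), or 2.66-fold, and stayed called with slide as a block.

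Acot13, also known as Them2, a mitochondria-associated thioesterase for long-chain acyl-CoA (NM_025790, mm9 chr13:24909838-24909897, minus strand), read 4.33, 4.50 and 4.69, then 5.55, 5.74 and 5.89. The diets were separated by more than the range within either. Its difference of 1.22 ± 0.18 (SE, n = 3 each), or 2.32-fold, was called.

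Acot7, a cytosolic long-chain thioesterase best known from brain (NM_133348, mm9 chr4:151645802-151645861), read 0.81, 1.33 and 1.18, then 1.90, 1.91 and 2.08. Its difference was the smallest among the members, 0.86 ± 0.19 (SE, n = 3 each), or 1.81-fold. It was called, but not with slide as a block, where it was 0.80. Nor was it called without control mouse 1 (0.71), restricted mouse 2 (0.89) or restricted mouse 3 (0.80).

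Acot9, a mitochondrial thioesterase (NM_019736, mm9 chrX:151731124-151731183), was the 1 member that was lower on the restricted diet. It read -0.65, -0.40 and -0.92 in the control mice and -1.77, -1.78 and -2.13 in the restricted mice. The diets did not overlap, and the difference was -1.24 ± 0.21 (SE, n = 3 each), 2.35-fold lower. It was called, but not with slide as a block, where it was -1.11. In bulk tissue, fewer cells of a type and less RNA per cell cannot be told apart. Macrophage markers were also lower, 14 of the 15 tested, the exception being the Itgam probe with the AC-rich run. Their summed level (linear signal in units of the array's 75th percentile) was 318 to 400 in control mice and 67.6 to 96.4 in restricted mice. Stellate cell and fibroblast markers were lower for 7 of 12 (summed level 116 to 152 against 47.4 to 77.1), neutrophil markers for 6 of 10, with 1 higher (152 to 186 against 91.9 to 135), and cell division genes for 11 of 11 (9.86 to 15.1 against 1.94 to 2.88). On the restricted diet the neutrophil sum was carried mostly by Csf3r, which differed by 0.03 and was not called. Lymphocyte markers were lower for 3 of 8 (31.6 to 49.2 against 27.7 to 39.1). Bile duct markers were lower for 3 of 8 (4.54 to 5.53 against 0.95 to 1.99). The part of these markers in the Acot9 difference was not tested.

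For the members that were higher, hepatocyte markers are the matching list. None of 12 was called by limma in either direction (at an unadjusted p under 0.05, 1 higher and 1 lower). However, 7 of the 12 were saturated on every array, so they could not show a change in hepatocyte content. Their scaled values mainly follow each array's 75th percentile, 574 in control mouse 1 and 287 in restricted mouse 3. The summed level, which includes these 7 probes, was 1200 to 1820 in control mice and 1560 to 2110 in restricted mice. Apoa1, Cps1, Asgr1, Tat and Apob, not saturated throughout, differed by -0.61, 1.07, 0.30, 0.44 and 0.17. Endothelial markers were higher for 4 of 12 (39.7 to 50.4 against 58.4 to 75.9). Adipocyte markers were higher for 2 of 7 and lower for 1, with summed levels of 5.22 to 12.5 and 125 to 267 carried on the restricted diet mostly by Car3, which liver also expresses, while Adipoq, Plin1 and Ucp1 did not pass the background filter. The part of these markers in the Acot differences was not tested.

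Side by side, type I had 5 of 6 genes called higher and a median difference of 2.92 (range 1.42 to 4.73), and type II 3 of 4 called higher, 1 lower and a median of 1.04 (range -1.24 to 1.41). These values use the probe of highest mean signal over all 6 arrays, restricted mice included. The Acot5 probes had control means of -2.91 and -2.94, so the restricted arrays decided between them. On the probes not chosen, Acot3 differed by 3.93 and was called, while Acot5 and Acot6 differed by 0.41 and 0.32 and were not. All 10 genes had diets whose signals did not overlap, as did 44.8% of all features, 26.1% with the restricted diet higher. Since the split was made with these values in view, it was not tested.

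Promoters were searched for the DR1 element (AGGTCA, any base, AGGTCA), which is bound by PPARα with its partner RXR and by HNF4α. RefSeq windows on GRCm38.p6, 250 bases before to 50 after the start, were at hand for 8 of the 10 members, in 10 windows, and not for Acot6 and Acot13. Allowing 2 mismatches on either strand, 2 windows held a match, those of Acot4 and Acot12, shown with the matched 13 bases in capitals.
Acot12 (chr13:91741403-91741432, plus strand, 1 mismatch): taggacccTGACCTCTCACCTcctaagcac
Acot4 (chr12:84038358-84038387, plus strand, 2 mismatches): ccgaagcaTGACCTTTGGCCGgtctgtgcc
Both matches are on the opposite strand to that printed. The Acot12 match begins 110 bases before the start, and that of Acot4 begins 13 bases before it. Such a match is found in 3.86% of the 32851 windows with 2 mismatches allowed and in 0.554% with 1. The single element AGGTCA, which is contained in the repeat, occurs in 6 of the 10 member windows (both of Acot3, both of Acot5, and those of Acot4 and Acot12) and in 16.3% of all windows. Both windows of Acot3 cover nearly the same bases, as do both of Acot5, so the windows of a gene are not separate findings. A match describes the letters of the window and shows no binding.

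Thioesterases outside the list moved in both directions. Of 13 other thioesterase genes 10 were tested, 5 were called higher and 2 lower, with a median difference of 0.70. Acot8, the broad-range peroxisomal enzyme, read 1.12, 1.71 and 1.78 in control mice and 2.52, 2.92 and 2.81 in restricted mice, a difference of 1.21 ± 0.23 (SE, limma adjusted p = 0.00992, n = 3 each). Them4 rose by 1.72 ± 0.35 (adjusted p = 0.0124, limma). Baat, which conjugates bile acids from their CoA esters, rose by 1.24 ± 0.29 (adjusted p = 0.0191, limma), and Fasn, the fatty acid synthase, whose last domain is a thioesterase, by 1.00 ± 0.23 (adjusted p = 0.0202). Acot10, the close mouse paralogue of Acot9, was lower as Acot9 was, reading -3, -2.91 and -3.70, then -4.07, -4.21 and -4.93. The difference was -1.20 ± 0.31 (limma adjusted p = 0.0288) with 1 array dim. Whether the Acot10 probe also reads the Acot9 transcript was not tested, so Acot10 is not separate evidence of a fall. Acot11, known from brown fat, differed by 0.41 ± 0.27 (adjusted p = 0.302, limma) and its diets overlapped. The slide block called 1 of the 10 higher and 0 lower, and 3 were higher and 0 lower without restricted mouse 2. Of all features, the slide block called 5.71% higher and 9.65% lower. Without restricted mouse 2 these shares were 7.9% and 9.41%. The same shares apply to the lists that follow. Normexp and median scaling each called 5 higher and 0 lower. Their shares of all features were 12.8% higher and 8.75% lower with normexp, and 18.7% and 11.9% with median scaling.

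The enzymes that make acyl-CoA, which thioesterases oppose, were mostly higher. Of 20 acyl-CoA synthetases tested, 11 were called higher and 4 lower (median 1.03). Acss2, the cytosolic acetyl-CoA synthetase, rose by 2.61 ± 0.18 (SE, limma adjusted p = 0.000334), with control values of 2.1 to 2.5 and restricted values of 4.79 to 4.91. Of its relatives, the mitochondrial Acss1 fell by 2.74, whereas Acss3 rose by 3.16 ± 0.46 (adjusted p = 0.00337, limma). Acsl1, the main long-chain synthetase of liver, rose by 2.21 ± 0.29 (adjusted p = 0.00206, limma) with 1 array saturated. The medium-chain synthetases Acsm3 and Acsm5 rose by 2.19 and 1.84, and Acsf3, the malonyl-CoA synthetase, by 1.29. The slide block gave 7 higher and 5 lower.

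Among 19 genes of acyl-CoA and fatty acid binding and carnitine transfer, 8 were called higher and 3 lower (median 0.67). Acbd5, a peroxisomal acyl-CoA binding protein, rose by 1.87 ± 0.17 (SE, limma adjusted p = 0.000637), Cpt2, of the inner mitochondrial membrane, by 1.54 ± 0.22, and Fabp2 by 1.44 ± 0.27. Fabp7, a fatty acid binding protein, fell by 3.02 ± 0.22 (adjusted p = 0.000353, limma). Under the slide block 2 were called higher and 2 lower.

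Genes that make or break down coenzyme A itself, the other product of a thioesterase, were called higher for 10 of 14 and lower for none (0 lower at an unadjusted p under 0.05, limma; median 0.90). Coasy, which completes coenzyme A synthesis, rose by 1.40 ± 0.16 (SE, limma adjusted p = 0.00135). Nudt7, the peroxisomal hydrolase that cleaves coenzyme A and its esters, rose by 2.67 ± 0.26 (adjusted p = 0.000704, limma), and Vnn1, the pantetheinase that returns pantothenate, by 3.03 ± 0.44 (adjusted p = 0.00334). Nudt8 rose by 0.89 ± 0.19. The slide block called 4 of these genes, and without restricted mouse 2 there were 3.

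Of 31 PPARα genes (known targets with the receptor and its partners), 17 were called higher and none lower (0 lower at an unadjusted p under 0.05, limma; median 1.02). Ppara itself read 3.70, 3.50 and 4.49 in control mice and 5.44, 5.53 and 5.68 in restricted mice, a rise of 1.65 ± 0.28 (SE, limma adjusted p = 0.00558) that was not called with slide as a block. The peroxisomal oxidation enzymes Acaa1b and Ehhadh rose by 4.16 ± 0.37 and 4.43 ± 0.50 (the Ehhadh probe was saturated on 1 array), Pex11a, of peroxisome division, by 1.73 ± 0.18, and Cyp4a10, a fatty acid hydroxylase, was at least 20.1-fold higher, saturated in all restricted mice (limma adjusted p = 0.000822). Other textbook targets were not called. Pdk4 read -0.1, 4.02 and -1.59 in control mice and -0.79, -1.61 and -2.27 in restricted mice, a difference of -2.33 ± 1.31 (limma adjusted p = 0.232) that control mouse 2 carries in large part. Fgf21 read -2.68, -1.78 and -3.3, then -2.49, -2.97 and -5.09, with restricted mouse 3, the lowest, not well above background, and differed by -0.93 ± 0.70 (adjusted p = 0.367, limma). The differences of Angptl4 and Plin2 were 0.60 and 0.29 (adjusted p = 0.216 and 0.699). Hnf4a, the other factor that binds this kind of element, differed by 0.55 ± 0.24 (adjusted p = 0.137, limma). The slide block called 11 of the 31, all higher.

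Fatty acid omega-oxidation, which yields the dicarboxylic acids handled in peroxisomes, had 16 of 19 genes called higher and none lower (0 lower at an unadjusted p under 0.05, limma; median 1.37). Cyp4a12a and Cyp4a12b, the male-biased hydroxylases, rose by 7.35 ± 0.45 and 7.21 ± 0.42 (SE, limma adjusted p = 0.000303 and 0.000273); they are near-identical genes and their probes may share signal. Cyp4a32 rose by 4.98 ± 0.37 and Abcd3, a peroxisomal fatty acid importer, by 2.41 ± 0.19. How far the probes of Cyp4a32 and the other Cyp4a genes of the list share signal was not tested, so their calls may not be separate. Under the slide block 12 of the 19 were called. The lists overlap in a few genes, among them Acsl1, Vnn1 and Cyp4a10, so their counts are not separate evidence.

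**Figure D5:**
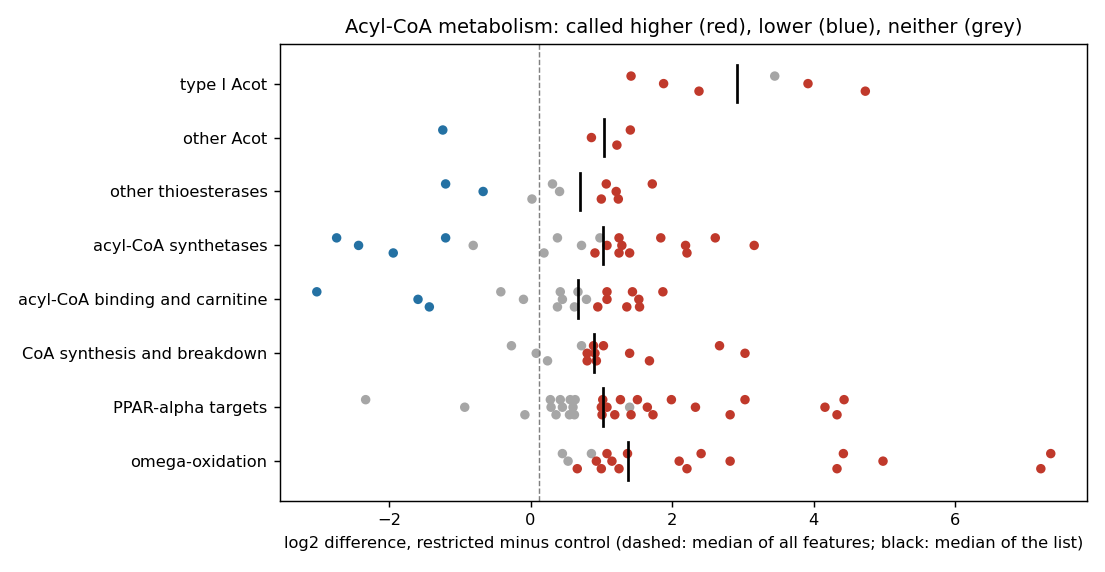
Log2 difference between the diets (restricted minus control, horizontal axis) of each tested gene in the Acot groups and 6 lists of acyl-CoA metabolism, red where called higher, blue where called lower and grey where neither, with a black tick at each list's median and a dashed line at the median of all features, 0.12. The type I median of 2.92 lies to the right of the other medians, which run from 0.67 to 1.37, and the blue points lie in the thioesterase, synthetase and binding groups.

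The features most like Acot1 across the 6 arrays, ranked by Pearson's r among 15241 features with an ordinary symbol and a value on every array, were Pklr (r = 0.9978), Ehhadh (0.9974), Pla2g6 (0.9962), Fabp2 (0.9957) and Hsdl2 (0.9955). Like Acot1, all 5 were highest in mouse 2 of the restricted diet and of the control diet, as with the Ehhadh values of 1.67, 3.22 and 1.43, then 6.25, 7.14 and 6.22. The features most like Acot9 were Vdr (r = 0.9994), Sptbn1 (0.9988), Metrnl (0.9987), Grrp1 (0.9973) and Pbdc1 (0.9960). In each of these control mouse 3 was the lowest control and restricted mouse 3 the lowest restricted mouse, the order that Acot9 showed, although for Vdr only 4 of the 6 arrays were well above background and its rank rests in part on the dim ones. All these correlations share the same 6 libraries, are dominated by the gap between the diets and are given as a description.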

How the data were processed

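Total RNA of 6 mice was labelled with Cy3 and hybridised to 1 single-colour Agilent array each (design 026655, mm9 positions). Per the file headers, Agilent Feature Extraction 10.7.3.1 produced the deposited intensity values; version 9.3.2.1 stands in the submitters' processing notes. Groups came from the sample labels, in which each replicate is a separate mouse. The number of arrays limits the precision.

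From the deposited intensity of 43020 spots per array, outlier spots (127 to 251) were left out, and log2 signals were averaged over the spots of a probe, less the 75th percentile of the array (signal 287 to 574). An array had 23527 to 25816 probes well above background. Probes that met this mark on every array measuring them in 1 diet or both were kept (24234), and the brightest probe of a gene name gave 19616 features. Diets were compared with limma 3.58.1 in R 4.3.3 with Benjamini-Hochberg adjustment over all features, which was tested on simulated data. At an unadjusted p under 0.05, 7812 features passed. Gene symbols of 26055 probes came from RefSeq accessions, and promoter sequences from RefSeq (GRCm38.p6).

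The members and the gene lists were chosen with earlier results of these data known. Genes named outside the family are the called genes of lowest p in each list (4 at most), the 5 features most like Acot1 and the 5 most like Acot9, and Ppara, Hnf4a, Acsl1, Baat and Acot8. Acot10, Acot11, Acss1, Acss3, Pdk4, Fgf21, Angptl4, Plin2 and the neighbours of the cluster were added after their values were seen. Alternatives were normexp background correction (offset 50), quantile and median scaling, the deposited value table (equal to the processed signal within 0.1% for 99.67% to 99.77% of probes, column medians 27.5 to 52.1, so linear and uncentred), other background filters, array weights, trend with robust moderation, slide or mouse number as a block, slide 1 alone, an ordinary pooled test, every probe, other thresholds, and leaving out each mouse.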

Additional observations from a re-analysis of the deposited data

How the results depend on the processing

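No member changed the sign of its difference under any alternative. Of 10 members, 8 were called higher and 1 lower, and 5386 features were called. With slide as a block, 3013 features, 3 members higher (Acot1, Acot12 and Acot13) and 0 lower were called, and the type I median was 1.81; on slide 1 alone these were 2254, 3 (Acot1, Acot5 and Acot12), 0 and 1.81, where the lone restricted mouse was taken to vary like the control mice. An ordinary pooled test called 4 members higher, beside 10.5% of all features higher. Adjusted p under 0.01 called 4 members higher, and 2533 features in either direction. Quantile normalization put the type II median at 0.81 in place of 1.04. Leaving out 1 mouse at a time gave 4 to 8 members higher, beside 7.9% to 16.9% of all features higher, and 3344 to 5818 features in either direction. In these fits the type I median was 2.26 to 3.54 and the type II median 0.92 to 1.10. The lowest member count came without restricted mouse 2, and without control mouse 1 it was 5. Acot3 was called under normexp, median scaling, trend and robust moderation, array weights, the replicate block and without restricted mouse 1. Acot4 and Acot6 were each not called under 10 of 19 alternatives. Among these were quantile normalization, no background filter and 5 of the 6 fits that left out a mouse. Quantile normalization and no background filter each called 6 members higher, beside 14.2% and 7% of all features higher. Normexp lowered the type I median to 2.29. With mouse number as a replicate block, 9 members were called higher, 1 lower and 6623 features in all (18.6% of all features higher and 15.2% lower). Deviations of same-numbered mice correlated at 0.384, -0.00224 and 0.482. Mice 1 and 3 correlated best with their own number and mouse 2 did not, so these values do not settle whether the numbers pair the mice. No background filter put the median of all features at 0.26 in place of 0.12. The causes of these shifts were not tested. Dim signal limits Acot2 and the dimmer probes of Acot3 and Acot6, each below the background criterion on 1 array.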
